A study of Homo sapiens with 6 samples.

Results

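The tetraspanin gene family was examined in HuCCT1, a human intrahepatic cholangiocarcinoma (iCCA) cell line derived from bile duct epithelium. Members were taken by name: every gene of the expression table called TSPAN followed by a number, and CD9, CD37, CD53, CD63, CD81, CD82, CD151, UPK1A and UPK1B. This gave 31 genes of the 20811 in the table. HuCCT1/CD90+ cells were transduced with a human THY1 lentivirus (THY1-CMV-GFP, where THY1 encodes CD90), and HuCCT1/CD90- cells with a blank lentivirus (Lenti-CMV-GFP-2A-Puro-Blank). Both were transduced at a multiplicity of infection of 40, and 3 libraries of each were sequenced. Only the name of the blank virus lists a Puro cassette, and the sources do not say whether the vectors match otherwise. Both lines grew in the same serum-supplemented RPMI medium and differ in their labels by the virus alone, and the sources used here do not say whether either line is a clone or a mixed population. A gene is read from 1 short amplicon, and its value is given in RPM (reads scaled to a common total of reads on genes). The HuCCT1/CD90- libraries held 9345680 to 10551516 reads and the HuCCT1/CD90+ libraries 8587634 to 9327650. A gene with no library of a line above 3 reads was taken to be at the detection floor there, a limit that covers counting error only. THY1 had 0, 1 and 0 reads in HuCCT1/CD90- and 435, 445 and 680 reads in HuCCT1/CD90+, as the labels say. All 7 biliary epithelial markers listed for the check of the cell type (KRT7, KRT19, KRT8, KRT18, SOX9, CDH1 and EPCAM) were above the floor. Their summed level was 8216 to 9320 RPM in HuCCT1/CD90-, against 11156 to 11931 RPM in HuCCT1/CD90+. Keratins made up most of these sums, and the markers did not move alike. From HuCCT1/CD90- to HuCCT1/CD90+, the mean of CDH1 went from 14.4 to 227 RPM and that of EPCAM from 28.6 to 363 RPM. The libraries of the lines overlapped for KRT7 (means of 3433 and 3656 RPM). The labels do not say that the 3 libraries of a line came from separate cultures, so the p-values measure the spread between libraries, which may be technical.

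Tetraspanins are small membrane proteins that span the membrane repeatedly and expose a large cysteine-rich extracellular loop. They bind partner proteins such as integrins, immunoglobulin-domain proteins and the protease ADAM10, gather them into membrane microdomains, and steer their traffic and activity. CD9, CD63 and CD81 are the usual surface markers of extracellular vesicles, and CD82 is known as a metastasis suppressor.

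The level of tetraspanin transcripts differed between the lines in both directions. A member was called when its limma p on log2(RPM + 1) values, adjusted over all genes, was 0.05 or less and its fold 1.5 or more. By this rule, 9 of the 31 members were higher in HuCCT1/CD90+, against 7.59% of all 20811 genes, and 3 were lower, against 7.49% of all genes (12 against 15.1% in either direction). The members that rose were CD9, CD63, CD81, CD151, TSPAN1, TSPAN8, TSPAN12, TSPAN13 and TSPAN32. Those that fell were CD82, TSPAN9 and UPK1B. When the fit kept only genes averaging 1 RPM or more, 20 members remained and 9 were higher and 3 lower, beside 16.7% and 16.5% of genes (33.3% together). These were not the same 9 genes, since CD81 and TSPAN32 dropped out under 1 RPM and TSPAN2 and TSPAN17 were newly called. Both the background share and the adjusted p-values thus depend on which genes the fit keeps. With the replicate number as a block, 4 members were higher (5.24% of all genes) and 2 lower (4.86%, or 10.1% in either direction): CD9, CD151, TSPAN1 and TSPAN12 rose, and CD82 and TSPAN9 fell. On recovered reads, edgeR called 11 of the 21 members it tested higher and 3 lower (17.5% and 17.3% of all genes tested, or 34.8% in either direction). DESeq2 called 11 of 28 higher and 3 lower (12.8% and 12.1%, or 24.9% in either direction). Of these 28, UPK1A, TSPAN7, TSPAN11, TSPAN16 and TSPAN18 had no adjusted p from DESeq2 and could not be called, and its shares also count such genes. The median log2FC (log2 fold change of HuCCT1/CD90+ over HuCCT1/CD90- on the RPM + 1 scale) over all 31 members was 0.20, beside 0.00 over all genes, and setting CD81 to its bound leaves it as it is. Of the 31, 9 were at the floor in both lines and 22 were above it in at least 1 library. The added 1 RPM shrinks the log2FC of genes of a few RPM, so the ratio of the means is given as well for the low genes. All 3 HuCCT1/CD90+ libraries lay above all 3 HuCCT1/CD90- libraries for 15 members (17.3% of all genes) and below them for 3 members (17.7%), 18 in all beside 35.0% of all genes.

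**Figure D1:**
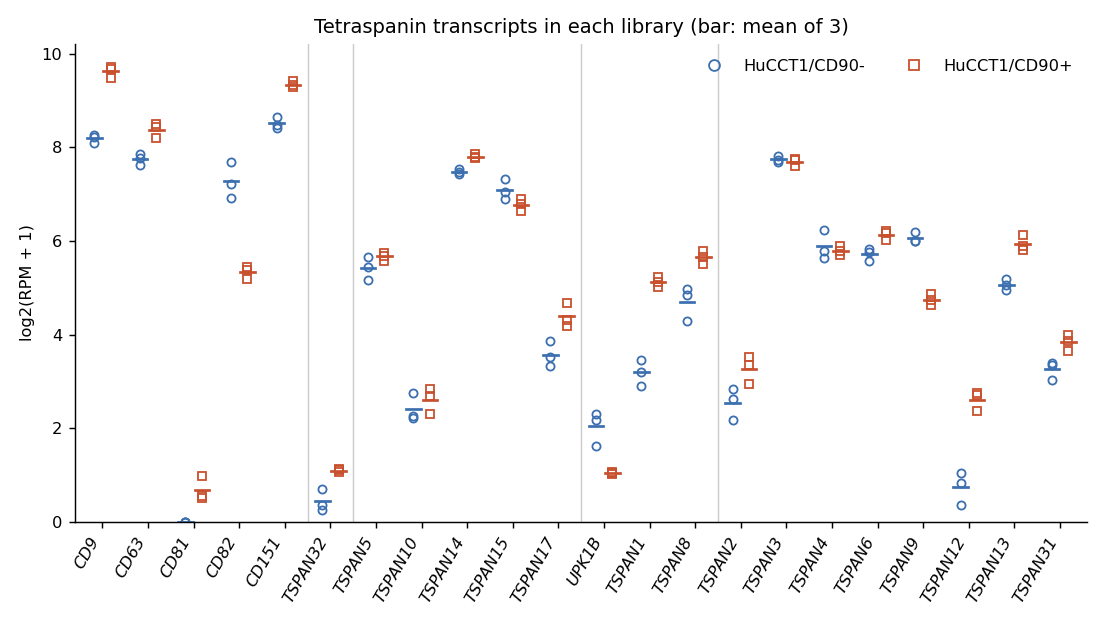
Level of the 22 tetraspanins above the floor in each library, in log2(RPM + 1), with HuCCT1/CD90- as blue circles, HuCCT1/CD90+ as orange squares and a bar at the mean of the 3 libraries; grey lines part the role groups. The CD9 and CD151 squares lie above their circles, the CD82 and TSPAN9 squares lie below theirs, and those of TSPAN3 and TSPAN4 overlap.

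The start regions of CD82, TSPAN1, TSPAN12 and TSPAN13 are shown because these members differed with any library left out and have a single start in the RefSeq promoter table (GRCh38.p14), which holds 23 of the 31 members. Each run is the 250 bases before the start, 5′ to 3′ on the strand of the gene. Capitals mark matches, on either strand, to the E-box CACCTG, a sequence bound by ZEB and SNAI repressors, to the GC box GGGCGG and to the CCAAT box CCAAT. CD82 is at chr11:44565413-44565662 on the plus strand, TSPAN1 at chr1:46174837-46175086 on the plus strand, TSPAN12 at chr7:120858145-120858394 on the minus strand and TSPAN13 at chr7:16753505-16753754 on the plus strand.
CD82: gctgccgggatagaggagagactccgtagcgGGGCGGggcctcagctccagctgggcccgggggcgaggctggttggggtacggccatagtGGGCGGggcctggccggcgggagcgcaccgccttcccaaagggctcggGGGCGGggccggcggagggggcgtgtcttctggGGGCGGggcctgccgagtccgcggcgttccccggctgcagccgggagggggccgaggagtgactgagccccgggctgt
TSPAN1: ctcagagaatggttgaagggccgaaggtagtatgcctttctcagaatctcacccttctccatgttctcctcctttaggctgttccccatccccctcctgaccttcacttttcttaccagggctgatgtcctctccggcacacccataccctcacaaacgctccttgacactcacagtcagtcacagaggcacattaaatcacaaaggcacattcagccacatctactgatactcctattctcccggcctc
TSPAN12: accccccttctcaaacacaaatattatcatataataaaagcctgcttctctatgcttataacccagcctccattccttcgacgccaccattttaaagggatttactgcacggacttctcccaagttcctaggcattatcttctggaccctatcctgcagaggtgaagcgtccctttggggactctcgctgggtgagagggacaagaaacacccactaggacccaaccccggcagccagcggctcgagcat
TSPAN13: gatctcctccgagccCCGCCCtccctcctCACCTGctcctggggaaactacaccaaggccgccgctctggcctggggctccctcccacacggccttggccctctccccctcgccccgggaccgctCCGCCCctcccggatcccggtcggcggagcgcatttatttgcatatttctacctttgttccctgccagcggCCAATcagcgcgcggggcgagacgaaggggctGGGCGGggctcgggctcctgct

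The 4 windows are not all alike. That of CD82, the member that fell, holds 4 GC boxes and neither of the other motifs. TSPAN13, which rose, holds 3 GC boxes, 1 E-box and 1 CCAAT box. TSPAN1 and TSPAN12, which rose as well, hold none of the 3 motifs. Over all 35116 windows of the table, 17.5% hold the E-box, 42.6% the GC box and 32.0% the CCAAT box. A match is given as a description of the sequence only.

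CD9, CD63, CD81, CD82 and CD151 were examined first, since they are the best known members of the family. The other CD-named members, CD37 and CD53, are given below with the blood-cell members and were not called. Of the 5 examined first, 4 rose and 1 fell, beside 7.59% and 7.49% of all genes (16.7% and 16.5% of genes averaging 1 RPM or more). CD9, a partner of integrins and of the growth factor precursor HB-EGF, had 273, 298 and 305 RPM in HuCCT1/CD90- and 717, 815 and 843 RPM in HuCCT1/CD90+. Every HuCCT1/CD90+ library was thus above every HuCCT1/CD90- library, with a wide gap. The mean rose from 292 ± 16.8 to 792 ± 66.2 RPM (SD over 3 libraries each), 2.71-fold, with a log2FC of 1.43 (SE 0.082, limma adjusted p = 0.0015). CD9 maps to GRCh38 chromosome 12, bases 6199715 to 6238271. CD151, which binds laminin-binding integrins tightly, had 342, 398 and 356 RPM in HuCCT1/CD90- and 639.8, 682 and 623 RPM in HuCCT1/CD90+. The groups did not overlap here either. POLR2L overlaps CD151 on the other strand, and reads of the pair could be shared. Its log2FC was 0.83 (SE 0.072, limma adjusted p = 0.0042). CD63, a lysosomal and vesicle tetraspanin, had 217, 197 and 232 RPM in HuCCT1/CD90- and 295, 344 and 361 RPM in HuCCT1/CD90+. These groups lay closer together. The log2FC of CD63 was 0.63 (SE 0.11, limma adjusted p = 0.023), just above the minimum fold, and its adjusted p was 0.070 with the replicate block. When 1 library was left out, CD63 passed without HuCCT1/CD90+ replicate 1 (adjusted p = 0.029, limma) and missed the threshold without any other (0.054 to 0.082).

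CD82 went the other way. It had 121, 205 and 149 RPM in HuCCT1/CD90- and 35.4, 40.5 and 42.3 RPM in HuCCT1/CD90+. The HuCCT1/CD90- libraries varied more among themselves, but the lowest of them was far above the highest HuCCT1/CD90+ library. The mean fell from 158 ± 42.8 to 39.4 ± 3.60 RPM (SD over 3 libraries each), 4.01-fold, with a log2FC of -1.95 (SE 0.22, limma adjusted p = 0.0083, or 0.036 with the block). CD82 maps to GRCh38 chromosome 11, bases 44564427 to 44620363. The GC-box-rich run shown above, set by the RefSeq start, lies inside these bases. The ratio of CD9 to CD82 amplicon reads within a library was 2.26, 1.45 and 2.05 in HuCCT1/CD90- and 20.3, 20.1 and 19.9 in HuCCT1/CD90+. This ratio was chosen after the values were seen and is given without a test.

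CD81, which is known from most human cell types, was almost unread. It had 0 reads in each HuCCT1/CD90- library and 4, 4 and 9 reads in HuCCT1/CD90+. Set against 3 reads in the shallowest HuCCT1/CD90- library, the HuCCT1/CD90+ mean of 0.624 ± 0.306 RPM (SD, n = 3) was at least 1.94-fold higher. Its adjusted p was 0.040 (limma), or 0.10 with the block, and the call was lost with any library left out, in 1 case (without HuCCT1/CD90+ replicate 3) through the minimum fold. It was also lost with an offset of 5 RPM (adjusted p = 0.065, limma). The position of the CD81 amplicon is not given in the sources used here, so a silent gene and a poorly amplified transcript cannot be told apart.

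**Figure D2:**
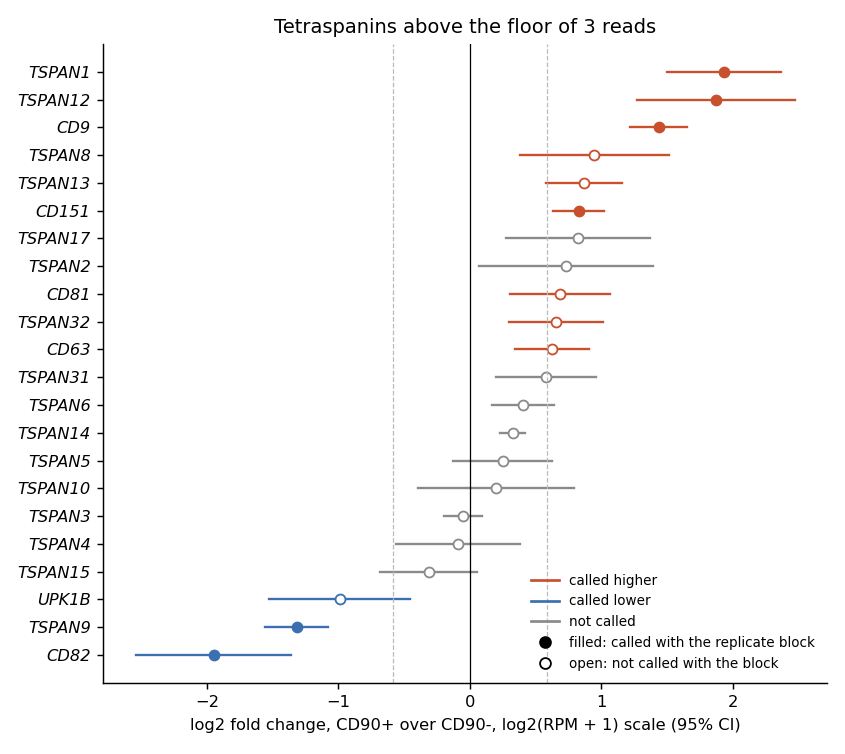
Log2 fold change of the 22 tetraspanins above the floor, HuCCT1/CD90+ over HuCCT1/CD90- on the log2(RPM + 1) scale, with 95% confidence intervals from limma (3 libraries each) and dashed lines at a fold of 1.5. TSPAN1 (1.93), TSPAN12 (1.87) and CD9 (1.43) lie farthest to the right and CD82 (-1.95) farthest to the left; filled points were also called with the replicate block.

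The epithelial and uroplakin members comprise TSPAN1 and TSPAN8, which are found in secretory and digestive epithelia and in carcinomas, and UPK1A and UPK1B, which build the urothelial plaque. TSPAN1 had 10.0, 6.53 and 8.25 RPM in HuCCT1/CD90- and 31.5, 36.8 and 33.9 RPM in HuCCT1/CD90+, without overlap. It rose 4.12-fold, with a log2FC of 1.93 (SE 0.16, limma adjusted p = 0.0038, or 0.045 with the block). TSPAN1 maps to GRCh38 chromosome 1, bases 46175073 to 46185958. TSPAN8 had 18.7, 27.8 and 30.5 RPM in HuCCT1/CD90- and 49.7, 44.4 and 54.4 RPM in HuCCT1/CD90+. The groups did not overlap, but TSPAN8 had the highest adjusted p of the 12 called members, with a log2FC of 0.95 (SE 0.21, limma adjusted p = 0.047). It was 0.11 with the block, and with 1 library left out TSPAN8 passed only without HuCCT1/CD90- replicate 1 (adjusted p = 0.037, limma, against 0.072 to 0.15 without any other library). LGR5 overlaps TSPAN8 on the other strand, with the same limit on its reads, which also holds for TSPAN1 (AL358075.4 and AL672043.1 on the other strand), TSPAN32 (C11orf21, other strand) and UPK1B (AC083800.1, same strand).

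UPK1B was low in both lines and fell. It had 2.085, 3.53 and 3.98 RPM in HuCCT1/CD90- and 1.07, 1.05 and 1.085 RPM in HuCCT1/CD90+, which correspond to 22 to 41 and 9 to 10 reads. The HuCCT1/CD90+ libraries were nearly alike and lay below all HuCCT1/CD90- libraries. The log2FC was -0.99 (SE 0.20, limma adjusted p = 0.036, or 0.097 with the block), and with 1 library left out UPK1B passed only without HuCCT1/CD90- replicate 1 (adjusted p = 0.0037, limma, against 0.090 to 0.11). Its mean RPM was 2.99-fold lower, and edgeR gave a log2FC of -1.56. With an offset of 5 RPM the log2FC was -0.43 and the call was lost (adjusted p = 0.052, limma). UPK1A had at most 1 read in any library. UPK2, the urothelial protein that pairs with UPK1A, went against UPK1B. It rose from 0.839 ± 0.306 to 13.8 ± 1.85 RPM (SD over 3 libraries each), with a log2FC of 3.01 (adjusted p = 0.0013, limma), a ratio of means of 16.4 and a log2FC of 4.03 from edgeR. UPK3A had 0 reads in each library. The 4 urothelial markers summed to 70.0 to 100.5 RPM in HuCCT1/CD90-, against 99.0 to 116.1 RPM in HuCCT1/CD90+, most of it PPARG, and their part in the UPK1B values was not tested.

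The TspanC8 members (TSPAN5, TSPAN10, TSPAN14, TSPAN15, TSPAN17 and TSPAN33) are named for the cysteines of their large loop and escort the shedding protease ADAM10 to the cell surface. None of the 6 was called by limma, although TSPAN17 was called by edgeR, by DESeq2, after median centring and when genes of low level were left out. Without the adjustment, an unadjusted p of at most 0.05 and the same fold also picked TSPAN17 alone. TSPAN14 had 178, 184 and 171 RPM in HuCCT1/CD90- and 219, 230.0 and 218 RPM in HuCCT1/CD90+. The groups did not overlap and the difference exceeded the spread between libraries (adjusted p = 0.0082, limma), but at a log2FC of 0.32 it was under the minimum fold, and its adjusted p was 0.089 when genes averaging under 1 RPM were dropped. TSPAN17 had 13.6, 9.095 and 10.5 RPM in HuCCT1/CD90- and 18.9, 17.2 and 24.7 RPM in HuCCT1/CD90+. Its log2FC was 0.82 (adjusted p = 0.061 from limma, 0.0029 from edgeR and 0.00125 from DESeq2). TSPAN15 had a log2FC of -0.31 (95% confidence interval from -0.68 to 0.052), with 159, 132 and 118 RPM in HuCCT1/CD90- and 109.5, 118 and 98.6 RPM in HuCCT1/CD90+, which overlapped slightly. The intervals of TSPAN5 (-0.13 to 0.63) and TSPAN10 (-0.39 to 0.79) also held 0, which does not show that they were alike in both lines. TSPAN33 had 0 reads in each library.

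ADAM10 itself had 139, 123 and 144 RPM in HuCCT1/CD90- and 200.3, 179 and 192 RPM in HuCCT1/CD90+. The groups did not overlap. The log2FC was 0.49 (SE 0.081, limma adjusted p = 0.022), which is under the minimum fold of 1.5.

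Of the 13 other numbered members, TSPAN12 and TSPAN13 rose and TSPAN9 fell. TSPAN12, a co-receptor of Norrin and Frizzled-4, had 0.284, 1.07 and 0.776 RPM (3 to 10 reads) in HuCCT1/CD90- and 4.18, 5.59 and 5.75 RPM (39 to 53 reads) in HuCCT1/CD90+. The groups were far apart, although the level was low in both. Its log2FC was 1.87 (SE 0.22, limma adjusted p = 0.0095, or 0.022 with the block), and the ratio of the mean RPM was 7.29. The size depended on the offset, with a log2FC of 2.83 at 0.1 RPM, 0.83 at 5 RPM and 2.87 from edgeR, and the call held in each. FZD4 and LRP5, the receptor and co-receptor that TSPAN12 works with, were both lower in HuCCT1/CD90+, with log2FC values of -0.73 (adjusted p = 0.046, limma) and -0.76 (adjusted p = 0.013). The adjusted p of FZD4 was 0.16 with the block. TSPAN13 had 32.5, 30.1 and 35.2 RPM in HuCCT1/CD90- and 68.6, 58.1 and 54.7 RPM in HuCCT1/CD90+, without overlap. Its log2FC was 0.87 (SE 0.11, limma adjusted p = 0.011, or 0.061 with the block).

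TSPAN9, a tetraspanin of platelets that is also found in other tissues, had 62.5, 62.8 and 71.8 RPM in HuCCT1/CD90- and 28.1, 25.6 and 23.7 RPM in HuCCT1/CD90+. It was the tightest of the falls, with little spread within either line. The mean was 2.55-fold lower, with a log2FC of -1.32 (SE 0.089, limma adjusted p = 0.0021, or 0.038 with the block). TSPAN9 maps to GRCh38 chromosome 12, bases 3077355 to 3286564.

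For TSPAN3 and TSPAN4 the libraries of the lines overlapped. TSPAN3 had 224, 207 and 212 RPM in HuCCT1/CD90- and 212, 214 and 193 RPM in HuCCT1/CD90+, and the interval of its log2FC ran from -0.20 to 0.093. For TSPAN4, an organiser of migrasomes, the interval was wider, from -0.56 to 0.38, and the sign of its change depended on HuCCT1/CD90- replicate 2 (73.9 RPM, against 48.8 and 54.3 in the other two). Without that library the log2FC turned from -0.089 to 0.083. TSPAN6 had 46.9 to 55.5 RPM in HuCCT1/CD90-, against 63.8 to 72.9 RPM in HuCCT1/CD90+, with a log2FC of 0.41 (adjusted p = 0.043, limma) under the minimum fold. TSPAN2 and TSPAN31 were not called by limma over all genes, but edgeR and DESeq2 called both on recovered reads. Limma called TSPAN2 as well when genes averaging under 1 RPM were dropped (adjusted p = 0.016), and TSPAN31 after subtraction of neighbouring genes (adjusted p = 0.042). TSPAN2 had 3.51, 5.14 and 6.21 RPM in HuCCT1/CD90- and 10.5, 6.75 and 9.22 RPM in HuCCT1/CD90+ (adjusted p = 0.13 from limma and 0.014 from edgeR). TSPAN31 had 9.19, 7.17 and 9.51 RPM in HuCCT1/CD90- and 14.9, 11.6 and 13.6 RPM in HuCCT1/CD90+ (adjusted p = 0.059 from limma and 0.021 from edgeR). With the block its adjusted p was 0.037 (limma), at a log2FC of 0.58 that is just under the minimum fold. The groups of both did not overlap. TSPAN31 overlaps CDK4 and AGAP2 on the other strand, and its reads could be shared with them. TSPAN7, TSPAN11, TSPAN16 and TSPAN18 had at most 2 reads in any library, and TSPAN19 had none.

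The blood-cell members are CD37, CD53 and TSPAN32. CD53 had 0 reads in each library and CD37 had at most 3. TSPAN32 had 2, 6 and 3 reads in HuCCT1/CD90- and 11, 10 and 10 reads in HuCCT1/CD90+, with a log2FC of 0.65 (adjusted p = 0.037 from limma, or 0.096 with the block). With 1 library left out it passed only without HuCCT1/CD90- replicate 2 (adjusted p = 0.0077, limma, against 0.079 to 0.12), and edgeR called it (log2FC 1.61, adjusted p = 0.019) whereas DESeq2 did not (adjusted p = 0.10). The ratio of its mean RPM was 3.05. With so few reads the fold depended on the offset: with 0.1 RPM in place of 1 RPM the log2FC was 1.503 and the call was lost (adjusted p = 0.064, limma), and with 5 RPM the log2FC was 0.19, under the minimum fold. Of the 7 blood-cell markers, 2 were above the floor in any library, and MS4A1 and SPN were among those with no reads. The marker PTPRC had 1 read in 1 library. The summed level of the 7 was 46.5 to 56.0 RPM in HuCCT1/CD90-, against 83.9 to 100.5 RPM in HuCCT1/CD90+, nearly all of it CD68, a lysosomal protein also made outside blood cells. Fewer cells of a type and less RNA per cell cannot be told apart in such bulk libraries. The 4 endothelial markers summed to 14.5 to 23.2 RPM in HuCCT1/CD90-, against 0.643 to 1.63 RPM in HuCCT1/CD90+, nearly all of it CDH5 in HuCCT1/CD90- (16.6 and 0.293 RPM on average, limma adjusted p = 0.00080). The 5 hepatocyte markers summed to 1.84 to 4.28 and 0 to 0.465 RPM, mainly APOA1 (limma adjusted p = 0.026), with TTR at 0, and the 6 fibroblast markers to 41.8 to 64.9 and 20.3 to 24.7 RPM. VWF had no reads in HuCCT1/CD90- and COL1A2 and COL3A1 had none in HuCCT1/CD90+, but no endothelial or fibroblast marker was at 0 in all libraries, and the part of these lists in the tetraspanin values was not tested.

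**Figure D3:**
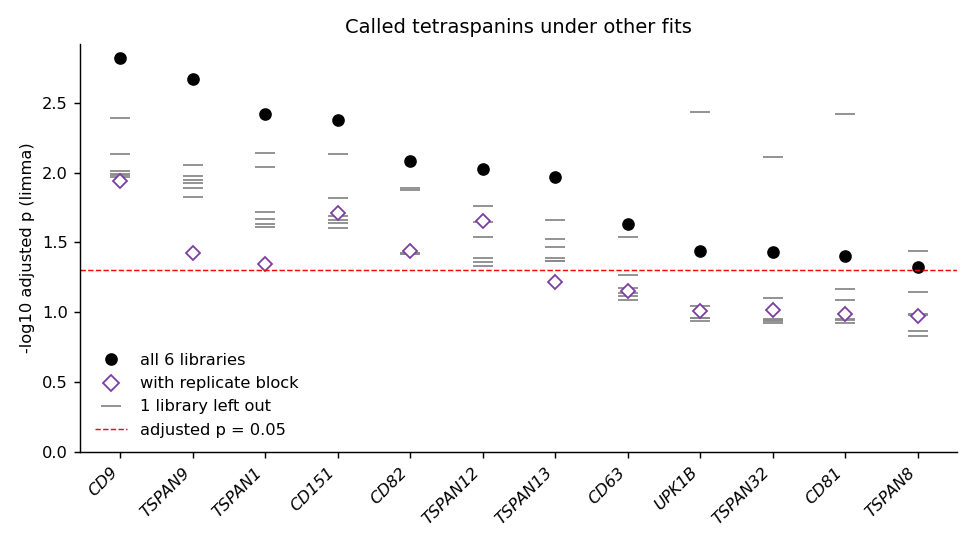
Adjusted p from limma, as -log10, of the 12 called tetraspanins with all 6 libraries (black), with the replicate number as a block (purple) and with each library left out (grey). For CD9, TSPAN9, TSPAN1, CD151, CD82 and TSPAN12 each symbol lies above the dashed line at 0.05; TSPAN13 falls below it with the block, and the last 5 genes fall below it in most of the reduced fits.

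The summed level of all 31 members was taken as a single value per library. It was 1816.5, 1934.7 and 1881.9 RPM in HuCCT1/CD90- and 2639.0, 2835.4 and 2775.6 RPM in HuCCT1/CD90+. Each HuCCT1/CD90+ library was above each HuCCT1/CD90- library, and the mean was 1.46-fold higher (1878 ± 59.2 and 2750.0 ± 101 RPM, SD over 3 libraries each). The exact permutation test gave p = 0.10 (two-sided), the smallest p that 3 libraries against 3 allow. CD9 made up 15.0% to 16.2% of this sum in HuCCT1/CD90- and 27.2% to 30.4% in HuCCT1/CD90+, and CD151 18.8% to 20.6% and 22.4% to 24.2%. The share of CD82 went from 6.65%, 10.6% and 7.91% to 1.34%, 1.43% and 1.52%. Such shares also depend on how well each amplicon amplifies, so they describe the reads and not the molecules. Without CD9, the member with the highest mean, the sum was 1544 to 1637 RPM in HuCCT1/CD90-, against 1922 to 2020 RPM in HuCCT1/CD90+.

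Some tetraspanin genes lie close together, and their values are set side by side here without a test of the difference. CD151 and TSPAN4 lie 2976 bases apart on chromosome 11, and CD151 rose while TSPAN4 had 48.8 to 73.9 RPM in HuCCT1/CD90-, against 50.9 to 58.7 RPM in HuCCT1/CD90+. CD81 and TSPAN32 lie 57976 bases apart on the same chromosome, and both were called higher from few reads. CD82 and TSPAN18 lie 106101 bases apart, and CD82 fell while TSPAN18 was at the floor in both lines. In all, 7 members lie on chromosome 12, 6 on chromosome 11 and 3 on chromosome 7.

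Since genes of some chromosomes differed together between these lines, each member was compared with the median log2FC of its 50 nearest expressed genes on the chromosome; the part of this in the values was not tested otherwise. For CD9, TSPAN1, TSPAN9 and CD82 these medians were 0.086, -0.24, 0.097 and 0.15, small beside the change of the member itself. UPK1B fell although its neighbours had a median of 0.60. TSPAN12 and TSPAN13 lie on chromosome 7, where the 376 expressed genes had a median log2FC of 0.55, and their own neighbours had medians of 0.65 and 0.39. When the medians of the neighbours were subtracted, TSPAN12 kept a log2FC of 1.35 (adjusted p = 0.023, limma), whereas TSPAN13 had 0.48 (adjusted p = 0.054). CD151, whose neighbours had a median of 0.36, then had a log2FC of 0.47 (adjusted p = 0.020), under the minimum fold. TSPAN8 kept a log2FC of 0.83 but missed the threshold (adjusted p = 0.073, limma). TSPAN32 and CD81 were no longer called, TSPAN31 was newly called, and the 3 members that fell were all still called, so that 5 members were higher (6.30% of all genes) and 3 lower (6.57%, or 12.9% in either direction).

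**Figure D4:**
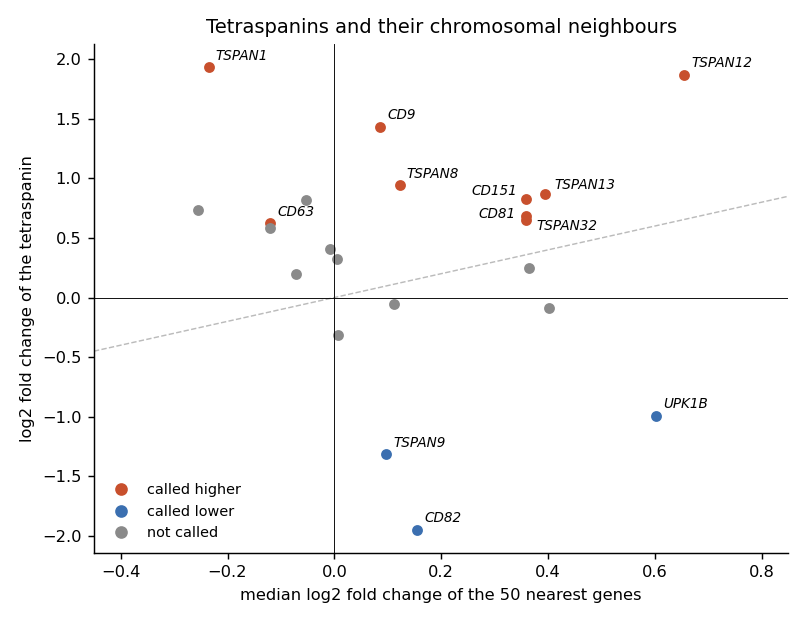
Log2 fold change of each of the 22 tetraspanins above the floor (vertical axis) against the median change among its 50 closest neighbours averaging 10 RPM or more (horizontal axis); the dashed line marks equal values. CD9, TSPAN1, CD82 and TSPAN9 lie far from the line, and UPK1B fell where its neighbours were higher.

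Genes that work with tetraspanins were then taken from a list of 48, comprising partners at the surface, vesicle machinery and related transmembrane proteins. Of these, 8 (16.7%) were higher in HuCCT1/CD90+ (7.59% of all genes) and 6 (12.5%) lower (7.49% of all genes), with a median log2FC of 0.0026. The share over all genes holds many silent genes, whereas 40 of the 48 averaged 1 RPM or more. When the fit kept only genes averaging 1 RPM or more, 10 were higher and 6 lower, beside 16.7% and 16.5% of genes. Among 13 surface partners outside the integrins, 4 rose and 5 fell by limma, and edgeR and DESeq2 also called CLDN1 higher (2.13-fold, limma adjusted p = 0.057, edgeR adjusted p = 8.2e-05). EPCAM, HBEGF, CD44 and CLDN7, which are known to associate with CD9 or TSPAN8, were the 4 that rose. EPCAM, an epithelial adhesion protein, had 32.1, 24.9 and 28.8 RPM in HuCCT1/CD90- and 416, 316 and 357 RPM in HuCCT1/CD90+, a log2FC of 3.62 (SE 0.15, limma adjusted p = 0.00070). HBEGF went from 18.7 ± 3.33 to 143 ± 12.8 RPM (SD over 3 libraries each), a log2FC of 2.88 (SE 0.15, limma adjusted p = 0.0012). CD44 had 1.14, 2.14 and 1.75 RPM in HuCCT1/CD90- and 14.2, 14.9 and 15.0 RPM in HuCCT1/CD90+, and CLDN7 went from 40.3 ± 2.56 to 227 ± 18.8 RPM (log2FC values 2.57 and 2.46). For CD44, the lower of the pair, edgeR gave a log2FC of 3.13, and the value was 1.56 with an offset of 5 RPM. The 5 that fell were PTGFRN and IGSF3, of the immunoglobulin family that holds direct CD9 and CD81 partners, the interferon-induced IFITM1, and LRP5 and FZD4. PTGFRN had 149, 185 and 139 RPM in HuCCT1/CD90- and 73.6, 85.2 and 74.5 RPM in HuCCT1/CD90+, and its mean was 2.03-fold lower (SE 0.13 on the log2 scale, limma adjusted p = 0.012). IGSF8, its close relative, had 1.71 to 4.85 RPM in HuCCT1/CD90-, against 2.36 to 5.32 RPM in HuCCT1/CD90+, and its log2FC of 0.0053 had a wide interval (-1.12 to 1.13). IFITM1 fell from 313 ± 53.4 to 142 ± 11.4 RPM and IGSF3 from 216 ± 12.1 to 126 ± 20.8 RPM (SD over 3 libraries each), with limma adjusted p of 0.011 and 0.027. The adjusted p of IGSF3 was 0.054 with the block. After subtraction of neighbouring genes, IGSF3 and the integrin chain ITGA5 were no longer called (adjusted p = 0.080 and 0.052, limma) and TM4SF4, of the L6 family, was newly called lower.

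Of the 7 integrin chains, ITGA2, a collagen receptor chain, rose from 53.5 ± 12.0 to 177 ± 15.0 RPM (log2FC 1.73 at a limma adjusted p of 0.0083) and ITGA5, a fibronectin receptor chain, fell from 154 ± 32.4 to 81.9 ± 5.13 RPM (log2FC -0.88 at a limma adjusted p of 0.033, or 0.067 with the block). The laminin receptor chains ITGA3, ITGA6 and ITGB4, which CD151 binds, were not called. ITGB4 ranged from 362 to 1094 RPM in HuCCT1/CD90- and from 228 to 769 RPM in HuCCT1/CD90+, so its interval was wide (-2.51 to 1.03). Of 15 genes of vesicle formation and release, CHMP4B, a subunit of the ESCRT-III scission complex, was the only limma call, and edgeR and DESeq2 also called TSG101 higher. CHMP4B rose from 167 ± 16.9 to 282 ± 9.50 RPM (log2FC 0.76 at a limma adjusted p of 0.0084, or 0.052 with the block). SDCBP, PDCD6IP, RAB27A and RAB27B, which act in exosome formation and release, had intervals that held 0 in the unpaired fit. With the block, the adjusted p of PDCD6IP was 0.019 (limma), at a log2FC of -0.45 that is under the minimum fold. In the L6 family, which resembles tetraspanins in its membrane topology, TM4SF18 rose from 23.2 ± 5.67 to 134 ± 15.4 RPM (log2FC 2.50 at a limma adjusted p of 0.0041) and the abundant TM4SF1 had 1154 to 1222 and 1260 to 1368 RPM. PRPH2, a photoreceptor tetraspanin outside the naming rule, had no reads, and its relative ROM1 had 2.28 to 5.88 RPM over the 6 libraries. ZDHHC2, which palmitoylates tetraspanins, had a log2FC of -0.56 without overlap of the groups, and was called lower by edgeR and DESeq2 but not by limma (adjusted p = 0.028, 0.036 and 0.21).

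The 8 associated genes that rose were called with any library left out. None of the 6 that fell was called without HuCCT1/CD90+ replicate 3 (adjusted p from 0.051 for IFITM1 to 0.13 for FZD4, limma). Of the 6 fits with 1 library left out, LRP5 and IFITM1 were called in 5, PTGFRN in 4, and ITGA5 and IGSF3 in 2. FZD4 was not called with any library left out. With the replicate block, 3 of those that fell were called (PTGFRN, LRP5 and IFITM1).

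**Figure D5:**
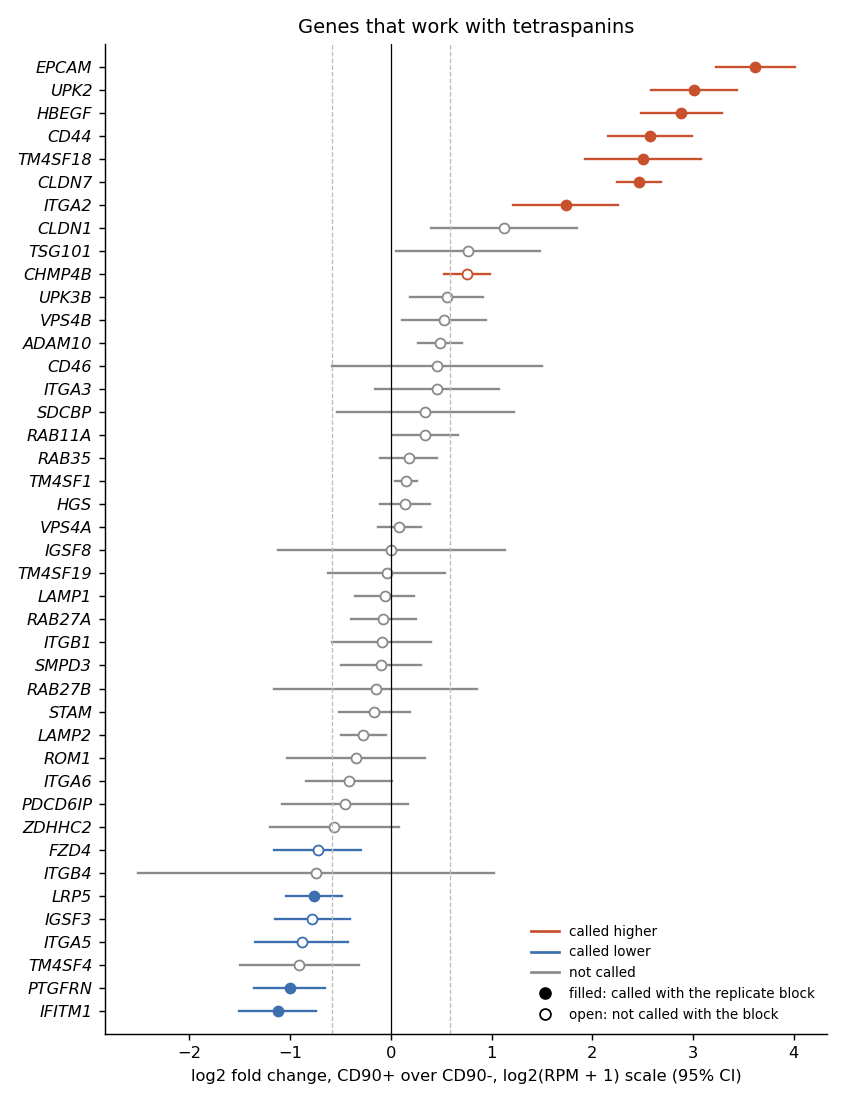
Log2 fold change, with 95% confidence intervals from limma (3 libraries each), of the 42 associated genes above the floor; colours and filling are as for the tetraspanins, and dashed lines mark a fold of 1.5. EPCAM, UPK2 and HBEGF lie farthest to the right and IFITM1 and PTGFRN farthest to the left, and most vesicle genes lie near 0.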

How the data were processed

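Ion AmpliSeq transcriptome libraries of total RNA were read on an S5 Prime sequencer. RPM values were deposited by the authors, who used the ampliSeqRNA plugin for counting; the submitters' processing notes name hg19. Amplicon positions are not given in the sources used here, and strand is not stated. Whole reads were recovered for 100% of values (within 0.01 read). Each library held 8587634 to 10551516 reads, and PCR copies were not marked. log2(RPM + 1) values of all 20811 genes were fitted in R 4.3.3 with limma 3.58.1 (lmFit, eBayes), as the study's methods name, with Benjamini-Hochberg adjustment. Calls took adjusted p ≤ 0.05 together with fold ≥ 1.5. edgeR 4.0.16 (quasi-likelihood, TMM, filterByExpr, 12070 genes) and DESeq2 1.42.0 (17006 genes) were run on recovered reads. Positions are from GENCODE 29 (GRCh38), matched by symbol for 18574 genes. The fit was tested on simulated data. Members and lists were chosen with earlier results of these data known. Values are given for called members with a mean of at least 1 RPM, members of at least 100 RPM, those called only with the block or by edgeR, called associated genes and ADAM10. Other members are given by ranges or reads. Unlisted associated genes named with values (IGSF8, CLDN1, ITGB4, PDCD6IP, TM4SF1, ROM1, ZDHHC2) and CD81 and TSPAN32 were chosen after their values were seen.

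The libraries carry replicate numbers 1 to 3. Deviations of same-numbered libraries from their line means correlated with r = 0.21, 0.32 and 0.18, and differently numbered pairs with r from -0.29 to 0.071. All p-values are from unpaired fits unless the block is named; since same-numbered libraries deviated together, values with the number as a block are given beside the calls they change. Only this correlation backs the pairing, as no label explains the numbers. All library pairs of a line differed by more than sampling noise (chi-square per degree of freedom from 9.66 to 26.5).

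Alternatives were other offsets, filters on low values, quantile normalization, median centring, a trended robust eBayes, the replicate block, other thresholds, each library left out, subtraction of neighbouring genes, edgeR and DESeq2.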

Additional observations from a re-analysis of the deposited data

How the results depend on the processing

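The number of tetraspanins called higher, 9, was 4 with the replicate block, 3 at a minimum fold of 2, 5 after subtraction of neighbouring genes (4 of the 9, and TSPAN31) and 5 to 6 with 1 library left out, with 5 without HuCCT1/CD90- replicate 3, HuCCT1/CD90+ replicate 2 or HuCCT1/CD90+ replicate 3. edgeR and DESeq2 each called 11 higher and 3 lower. The 3 called lower were 2 to 3 with 1 library left out. CD9, CD82, TSPAN1, TSPAN9 and TSPAN12 were called in every alternative that gave them a value. The number of associated genes called lower, 6, was 3 with the block, 2 at a minimum fold of 2, 3 without HuCCT1/CD90- replicate 3, and 0 to 4 with 1 library left out, with 0 without HuCCT1/CD90+ replicate 3 (limma; edgeR called 7 lower). The count of associated genes called higher was 8 to 10 with 1 library left out. The block ended no other call than those given, of which CHMP4B was the only one among the associated genes that rose.

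The median log2 fold change of the tetraspanins, 0.20, was 0.37 with an offset of 0.1 RPM, 0.12 with 5 RPM, 0.49 when genes averaging under 1 RPM were dropped and 0.49 when those under 10 RPM were, 0.63 with edgeR and 0.74 with DESeq2, which test fewer genes, and 0.17 to 0.29 with 1 library left out. The difference in summed RPM was 830 to 928 with 1 library left out. The sign of TSPAN5 turned after subtraction of neighbouring genes (-0.11), and that of TSPAN4 without HuCCT1/CD90- replicate 2 (its log2 fold change was -0.212 to 0.083 with 1 library left out), both without a call. CD81 had at most 9 reads and TSPAN32 at most 11 in any library, so counting error is large for both.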
